A study of Mus musculus with 12 samples.

Results

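Chemokines are small secreted proteins that steer migrating cells, and their receptors are G protein-coupled receptors on those cells. The genes examined here were the protein-coding mouse genes whose symbols name a chemokine ligand (Ccl, Cxcl, Xcl, Cx3cl) or a receptor (Ccr, Cxcr, Xcr, Cx3cr and the atypical receptors Ackr) followed by a number, on numbered chromosomes of the RefSeq annotation of GRCm38. There were 61 such genes of 21896 protein-coding genes, 39 for ligands and 22 for receptors. Peaks of open chromatin with their centre in a gene or within 10 kb of its ends were assigned to the nearest of these genes. This gave 150 peaks of 75281, 56 at ligand genes and 94 at receptor genes. Cxcr3 lies on the X chromosome and is outside the rule.

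In bone marrow, the ligand Cxcl12 made by stromal cells holds blood progenitors and neutrophils in place through Cxcr4, and ligands of Cxcr2 such as Cxcl1 and Cxcl2 draw neutrophils out into the blood. Ccr2 acts likewise for monocytes. The atypical receptors bind chemokines without the usual signalling and so remove, store or transport them.

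The libraries are ATAC-seq, in which the Tn5 transposase cuts accessible DNA, so that regions with more reads are more accessible. They came from bone marrow of mice of the inbred strain NZO/HILtJ, which is prone to obesity and diabetes, with no treatment named. There were 3 females and 3 males at 3 months of age and 3 females and 3 males at 18 months, 12 libraries in all, and groups, sexes and mouse numbers were taken from the sample labels. Totals in peaks ranged from 7668099 to 12756647 counts per library.

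The sequencing runs named in the labels were 14 and 15 for the 18-month mice and 28, 29, 30 and 31 for the 3-month mice, and 0 runs held both ages. Age and run therefore cannot be told apart in any value below. All 18-month females were in run 14 and all 18-month males in run 15, so sex and run cannot be told apart at 18 months either, which bears on every value by sex, the interaction included. The protocols describe a sort of CD3e and CD8 positive T cells, whereas the labels name bone marrow. Of 12 T and NK cell markers, 6 had no peak within 3 kb, Cd3e, Cd8a and Cd8b1 among them, and the summed level of the others was 94.6 to 124 CPM per library (counts scaled to the library total). The 10 erythroid markers had a summed level of 371 to 751 CPM. One library stood apart: the 3-month male of run 30 had a summed neutrophil marker level of 297 CPM, against 173 to 201 CPM in the other 3-month libraries and 257 to 323 CPM at 18 months. Calls for age over both sexes that change without this library are given with and without it.

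Of the 61 genes, 40 had at least 1 peak, 21 for ligands and 19 for receptors. The 18 ligand genes with no peak were Ccl2, Ccl8, Ccl11, Ccl12, Ccl19, Ccl20, Ccl21a, Ccl21b, Ccl21c, Ccl21d, Ccl26, Ccl27b, Cxcl5, Cxcl12, Cxcl13, Cxcl14, Cxcl15 and Xcl1, and the 3 receptor genes with none were Ackr3, Ackr4 and Ccr4. The Ccl21 and Ccl27 genes have near-identical copies, and the treatment of reads that match several copies is not given in the sources used here. Cxcl12, the retention signal of the marrow, thus had no peak within 10 kb, while its receptor gene Cxcr4 had 6. For 33 of the 150 peaks another protein-coding gene was nearer than the chemokine gene, and some of these genes are named below. The peaks nearest the 10 kb limit were at 9.84 kb from Cxcl17, with its centre in Lipe, and 9.62 kb from Ccl22 on the inside, with log2 fold changes of -0.20 and -0.21. The nearest ones outside it, at Cxcr6 and Cxcr4, had log2 fold changes of 0.12 and -0.41.

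The sequences shown next are the 250 bases before the RefSeq transcription start of 8 genes whose starts or clusters carry the age differences described below. They are 5′ to 3′ on the gene's own strand, from RefSeq GRCm38.p6, in lower case. Capitals mark matches on either strand to 7 short motifs. Of these, GGANTTTCC stands for NF-kB, GAGGAAGT for PU.1, TTGCNNAA for C/EBP and GAAANNGAA for the interferon element. The shorter ones are TGANTCA for the AP-1 family of factors, AGATAA for the erythroid and other GATA factors, and TGTGGT for the RUNX family. The 3 neutrophil-attracting ligand genes of chromosome 5 come before Ccl3, the atypical receptor gene Ackr1 and 3 other receptor genes.
Cxcl1, chr5:90890995-90891244, + strand: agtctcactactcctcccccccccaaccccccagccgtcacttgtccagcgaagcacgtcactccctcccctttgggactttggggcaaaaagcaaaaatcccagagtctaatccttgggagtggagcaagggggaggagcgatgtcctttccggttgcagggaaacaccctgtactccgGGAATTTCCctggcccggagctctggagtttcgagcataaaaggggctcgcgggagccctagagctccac
Cxcl2, chr5:90903649-90903898, + strand: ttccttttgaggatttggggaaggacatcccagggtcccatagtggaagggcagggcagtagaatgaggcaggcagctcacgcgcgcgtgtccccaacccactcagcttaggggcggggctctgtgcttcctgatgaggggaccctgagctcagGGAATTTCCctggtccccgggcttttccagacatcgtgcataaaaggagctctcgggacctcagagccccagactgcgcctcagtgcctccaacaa
Cxcl3, chr5:90785851-90786100, + strand: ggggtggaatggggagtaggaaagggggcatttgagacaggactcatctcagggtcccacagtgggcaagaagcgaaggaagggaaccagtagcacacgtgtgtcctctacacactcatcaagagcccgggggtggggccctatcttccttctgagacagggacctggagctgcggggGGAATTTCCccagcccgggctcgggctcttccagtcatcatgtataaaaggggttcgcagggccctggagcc
Ccl3, chr11:83649379-83649628, - strand: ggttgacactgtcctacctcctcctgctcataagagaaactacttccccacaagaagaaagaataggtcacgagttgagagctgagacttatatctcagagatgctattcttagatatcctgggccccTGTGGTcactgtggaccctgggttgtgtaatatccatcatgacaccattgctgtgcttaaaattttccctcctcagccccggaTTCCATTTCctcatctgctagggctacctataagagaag
Ackr1, chr1:173333504-173333753, - strand: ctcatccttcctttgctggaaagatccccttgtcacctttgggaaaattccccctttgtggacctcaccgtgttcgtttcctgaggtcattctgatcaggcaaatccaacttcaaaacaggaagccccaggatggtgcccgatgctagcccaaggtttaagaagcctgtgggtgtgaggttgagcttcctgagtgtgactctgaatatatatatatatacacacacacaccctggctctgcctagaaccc
Ccr1, chr9:123968693-123968942, - strand: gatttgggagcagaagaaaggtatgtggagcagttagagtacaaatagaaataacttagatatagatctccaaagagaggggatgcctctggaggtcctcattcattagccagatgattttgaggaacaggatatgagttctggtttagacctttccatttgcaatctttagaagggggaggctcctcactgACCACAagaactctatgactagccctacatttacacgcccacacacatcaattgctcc
Ccr1l1, chr9:123986716-123986965, - strand: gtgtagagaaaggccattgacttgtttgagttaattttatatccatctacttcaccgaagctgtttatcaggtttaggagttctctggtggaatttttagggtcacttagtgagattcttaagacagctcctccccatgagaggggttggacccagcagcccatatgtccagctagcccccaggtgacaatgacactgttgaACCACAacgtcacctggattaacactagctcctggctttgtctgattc
Cx3cr1, chr9:120068297-120068546, - strand: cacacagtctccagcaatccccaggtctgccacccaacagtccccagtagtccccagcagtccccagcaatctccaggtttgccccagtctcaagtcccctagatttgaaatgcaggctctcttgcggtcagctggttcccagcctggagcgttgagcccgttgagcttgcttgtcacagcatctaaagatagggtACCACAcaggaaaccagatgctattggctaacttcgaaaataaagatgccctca

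Cxcl1, Cxcl2 and Cxcl3 each held the letters GGAATTTCC, at bases 70 to 62, 96 to 88 and 72 to 64 before the start. Across 53 windows of 46 chemokine genes found in the promoter table, 5 windows (9.43%) held the NF-kB letters, against 1.07% of all 32851 windows of that length. The other 2 genes with a match were Cxcl10, for a ligand induced by interferons, and Ccr3, for a receptor of eosinophils. RUNX letters stood at bases 58 to 53 before the start of Ccr1, 48 to 43 before Ccr1l1, a Ccr1-like gene beside it, 54 to 49 before Cx3cr1 and 122 to 117 before Ccl3. They were present in 18.9% of the chemokine windows and 14% of all windows. GATA letters were found in 17% against 9.99%, those of the interferon element in 15.1% against 7.13%, C/EBP in 15.1% against 9.56% and AP-1 in 11.3% against 6.75%, while PU.1 letters were in 0 of the 53 windows and 2.44% of all. The window of Ackr1 held none of the 7 motifs. A match describes letters only, and windows of neighbouring starts of 1 gene overlap.

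Between 3 and 18 months, 33 of the 150 chemokine peaks (22%) passed the test for age. The test was the quasi-likelihood F test of edgeR, with a term for sex and Benjamini-Hochberg adjustment over all 75164 tested peaks, with a threshold of 0.05, and all 150 chemokine peaks were tested. The same test called 21.0% of all tested peaks, so the share called was close to the background. By direction, 21 chemokine peaks (14%) were higher at 18 months and 12 (8%) were lower, against 9.43% higher and 11.6% lower over all tested peaks. The balance shifted with the scaling: by total counts 11196 of all tested peaks were higher and 6629 lower. Among ligand peaks 9 of 56 were higher (16.1%) and 4 were lower (7.14%), with a median log2 fold change of 0.11. Among receptor peaks 12 of 94 were higher (12.8%) and 8 were lower (8.51%), with a median of 0.01, and over all tested peaks the median was 0.02. Ligand peaks had a median width of 693.5 bp and a median log2 CPM of 2.75, receptor peaks 794 bp and 3.12, and all tested peaks 706 bp and 2.85. By overlap of the libraries, 2 chemokine peaks (1.33%) had all 6 libraries of 18 months above all 6 of 3 months, against 2.20% of all peaks, and 3 (2%) had them all below, against 5.04%. The former lay at Cxcl2 and Cx3cr1 and the latter at Ackr1, Cx3cl1 and Ccl17. Without the 3-month male of run 30 the ligand peaks higher at 18 months came to 15 and those lower to 4, and the receptor peaks to 13 and 8. This was 40 peaks in all, 31 of them among the 33, when 24.9% of all tested peaks were called, and the 9 peaks called only without it are given with their genes below.

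**Figure D1:**
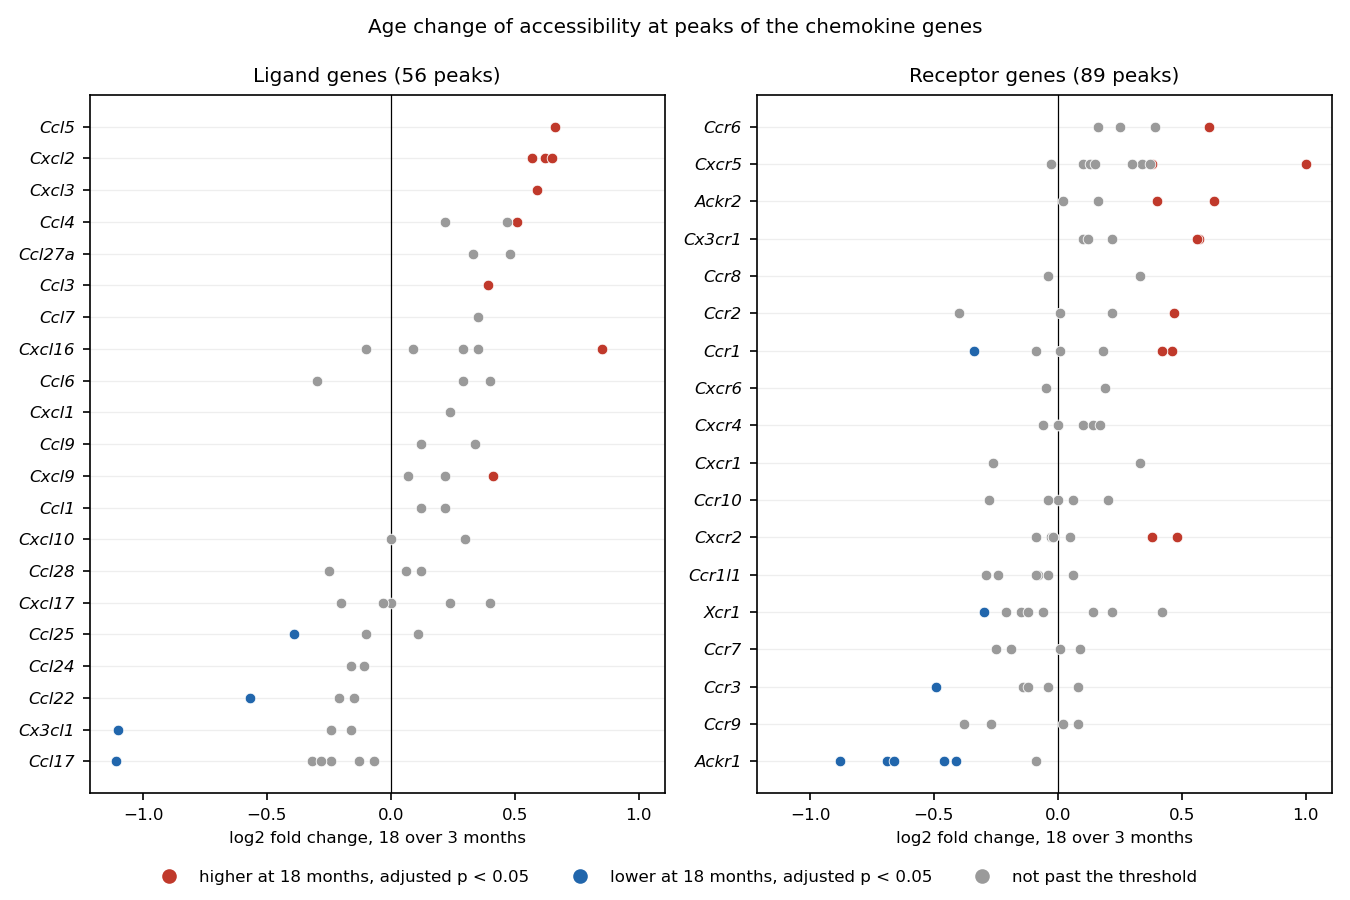
Log2 fold change in accessibility, 18 over 3 months, of 145 peaks of 39 genes, 1 row per gene, with ligand genes at the left and receptor genes at the right. Red and blue points passed the edgeR test as higher or lower at 18 months and grey points did not; the 3 peaks of Cxcl2 are all red and 5 of the 6 peaks of Ackr1 are blue.

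Among the neutrophil attractant genes of chromosome 5, peaks of Cxcl2 and Cxcl3 were more open at 18 months. The cluster from Cxcl5 to Cxcl2 spans 147 kb and had 5 peaks within 10 kb of its genes. At 18 months 4 of these were higher and 0 lower, with a median log2 fold change of 0.59. Another 4 peaks of the span, farther from these genes, had log2 fold changes of 0.18 to 0.51 and 0 calls. The peak over the start of Cxcl2 (GRCm38 chr5:90903046-90903961) lay over the promoter sequence printed above. Its lowest, median and highest library at 18 months had 12.9, 14.3 and 19 CPM, and at 3 months 8.87, 10.3 and 11.5 CPM. The groups did not overlap, and the log2 fold change was 0.57 ± 0.125 (SE, 6 libraries per age, edgeR adjusted p = 0.000652). The other peaks of Cxcl2, 5.23 kb before and 5.09 kb after the start, changed by 0.62 and 0.65 on the log2 scale (edgeR adjusted p = 0.0137 and 0.00653), so that all 3 peaks of this gene rose. In females the peaks before, over and after the start changed by 0.72, 0.69 and 0.73 (edgeR adjusted p = 0.0657, 0.00468 and 0.0473). The values in males were 0.51, 0.46 and 0.57 (adjusted p = 0.218, 0.0803 and 0.14).

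Cxcl3, for another ligand of Cxcr2, had 1 peak, centred 3.57 kb after the start (chr5:90789267-90790080). It had 12.2, 15 and 17.5 CPM as lowest, median and highest library at 18 months and 8.35, 9.47 and 12.5 CPM at 3 months. The groups overlapped only between 12.2 and 12.5 CPM, the latter in the 3-month male of run 30, and the log2 fold change was 0.59 ± 0.129 (SE, edgeR adjusted p = 0.000713). By sex it was 0.82 in females (edgeR adjusted p = 0.00078) and 0.35 in males (adjusted p = 0.198). The single peak of Cxcl1 lay 9.22 kb before its start (chr5:90881667-90882386), with 11.5, 15 and 20.8 CPM at 18 months and 8.61, 13.5 and 19.1 CPM at 3 months. Its log2 fold change of 0.24 ± 0.143 (SE) did not pass (edgeR adjusted p = 0.251), and without the 3-month male of run 30 it was 0.37 (adjusted p = 0.0211). In females the Cxcl1 peak was higher at 18 months (16.1 to 20.8 against 8.61 to 13.7 CPM, log2 fold change 0.73, edgeR adjusted p = 0.00249), and in males it was 11.5 to 13.9 against 13.4 to 19.1 CPM, with a log2 fold change of -0.27 (adjusted p = 0.351), or -0.09 without the 3-month male of run 30, which had the 19.1 CPM.

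The levels of neutrophil markers moved in the same direction: 8 of the 9 markers with a peak were higher at 18 months and 0 were lower, with a median log2 fold change of 0.42 (Elane had no peak). Monocyte and macrophage markers had a summed level of 125 to 147 CPM at 18 months and 126 to 146 CPM at 3 months, with 2 of 10 higher. The part of these marker levels in the ligand results was not tested. In bulk libraries, fewer cells of a type and less open chromatin per cell cannot be told apart.

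Of the CC ligand genes on chromosome 11, Ccl3, Ccl4 and Ccl5 each had 1 peak that was higher at 18 months. From Ccl5 to Ccl4, over 139 kb, 3 of 10 peaks within 10 kb of these genes were higher at 18 months, 0 were lower and 9 of 10 log2 fold changes were above 0, with a median of 0.36. Of 8 peaks of the span farther from the genes, 3 were higher and 0 lower, with a median of 0.30. Ccl3 and Ccl4 encode macrophage inflammatory proteins and Ccl5 the T cell and monocyte attractant RANTES. The peak of Ccl3, 7.86 kb beyond the 3′ end of the gene (chr11:83638966-83640998), had 43.1, 50.8 and 54.1 CPM as lowest, median and highest library at 18 months and 29.4, 35.2 and 57.1 CPM at 3 months. The highest 3-month value exceeded every 18-month value, and the log2 fold change was 0.39 ± 0.107 (SE, edgeR adjusted p = 0.00703). Without the 3-month male of run 30 it was 0.50. In females the Ccl3 peak changed by 0.62 (edgeR adjusted p = 0.00134). In males it changed by 0.15 (adjusted p = 0.529), or by 0.36 without that male (adjusted p = 0.0677). At the start of Ccl3 itself, the peak chr11:83649025-83649877 had 9.49 to 13.7 CPM at 18 months and 5.19 to 10 CPM at 3 months (log2 fold change 0.51 ± 0.143, SE, edgeR adjusted p = 0.00721). The rule assigns it to Ccl4, whose RefSeq span reaches over that start. A further peak of Ccl4 (chr11:83662281-83662691) had 0.47 (adjusted p = 0.0686), or 0.62 without the 3-month male of run 30 (adjusted p = 0.0129).

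The peak of Ccl5 (chr11:83534453-83534901, 4.16 kb from the gene) was low, at 4.12 to 7.15 CPM against 2.64 to 4.74 CPM, with a log2 fold change of 0.66 ± 0.197 (SE, edgeR adjusted p = 0.0127), which became 0.54 without 18-month male 39 (adjusted p = 0.0604). Ccl6 and Ccl9 encode ligands of Ccr1 made by myeloid cells. Their highest peaks had log2 fold changes of 0.29 and 0.12 and did not pass (edgeR adjusted p = 0.121 and 0.606), and without the 3-month male of run 30 the Ccl6 peak over the start gave 0.42 (adjusted p = 0.00818) and the Ccl9 peak 0.27. The other Ccl9 peak (chr11:83577156-83577589) had 0.34 (adjusted p = 0.153), or 0.47 without that male (adjusted p = 0.0363). The other Ccl cluster of chromosome 11, from Ccl2 to Ccl1, held 3 peaks, at Ccl7 and Ccl1, with log2 fold changes of 0.12 to 0.35 and 0 calls.

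Further ligand peaks that rose lay nearer to other genes. A peak 8.71 kb from Cxcl16, the membrane-bound ligand of Cxcr6, had Arrb2 as its nearest gene (chr11:70445536-70445812). It had 3.16, 4.07 and 6.08 CPM at 18 months and 1.45, 2.11 and 3.42 CPM at 3 months, for a log2 fold change of 0.85 ± 0.227 (SE, edgeR adjusted p = 0.00523). The other 4 peaks of Cxcl16 did not pass, but one of them, nearer to Med11 (chr11:70452973-70453640, log2 fold change 0.35, adjusted p = 0.051), passed without the 3-month male of run 30 (0.39, adjusted p = 0.0217) and under total-count scaling (0.43, adjusted p = 0.0156). Likewise a peak 9.04 kb from Ccl27a, a skin ligand of Ccr10, nearer to Il11ra1, had 0.48 (adjusted p = 0.0745), or 0.53 without that male (adjusted p = 0.0368). Cxcl9 and Cxcl10, ligands of Cxcr3 induced by interferons, held 5 peaks with 1 call, for a Cxcl9 peak inside Art3 (chr5:92331301-92332672, log2 fold change 0.41, edgeR adjusted p = 0.0263). That call was lost on leaving out any 1 of 6 libraries, the 3-month male of run 30 among them (0.34, adjusted p = 0.053). The peak over the start of Cxcl10 had 7.97 to 12.4 CPM at 18 months and 8.82 to 10.6 CPM at 3 months, a log2 fold change of 0.00. The other Cxcl10 peak, 5.12 kb from the gene and nearer to Art3, had 0.30 (adjusted p = 0.0848), or 0.34 without that male (adjusted p = 0.0432).

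The largest losses among ligands came from 1 region of chromosome 8 that holds Ccl22, Cx3cl1 and Ccl17 over 66.4 kb. Ccl17 and Ccl22 share the receptor Ccr4, and Cx3cl1 (fractalkine) is the membrane-bound ligand of Cx3cr1. All 13 peaks within 10 kb of these genes had log2 fold changes under 0, with a median of -0.24, and 3 passed the test, all lower at 18 months. Among those that did not pass, the Ccl17 peaks chr8:94818491-94820123 and chr8:94820806-94821408 had Ciapin1 as their nearest gene. The peak 5.37 kb beyond the end of Cx3cl1 (chr8:94786735-94788857) had 17, 20.2 and 23.5 CPM as lowest, median and highest library at 18 months and 34.2, 44.2 and 50.9 CPM at 3 months. The groups did not overlap, and the log2 fold change was -1.10 ± 0.103 (SE, edgeR adjusted p = 2.78e-11). The peak 9.73 kb before the start of Ccl17 (chr8:94800292-94801161) had 6.19, 7.83 and 8.97 CPM at 18 months and 10, 17.9 and 19 CPM at 3 months, again without overlap, for -1.11 ± 0.136 (SE, edgeR adjusted p = 1.83e-08). The lowest 3-month value, from the 3-month male of run 31, stood apart from the others, which were 17.6 to 19 CPM. Both peaks lie between the 2 genes, and 2 smaller peaks between them had log2 fold changes of -0.24 (adjusted p = 0.311) and, over 10 kb from either gene, -0.41 (adjusted p = 0.0634). The peak 8.89 kb before Ccl22 fell by less, with 9.28, 11.3 and 14.1 CPM against 13.1, 17.5 and 21.5 CPM and a log2 fold change of -0.57 ± 0.126 (SE, edgeR adjusted p = 0.00076). Over the start of Cx3cl1 the log2 fold change was -0.16 (adjusted p = 0.533).

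The remaining ligand peak that fell covered a start of Ccl25, the thymus and gut ligand of Ccr9, with its centre inside Elavl1 (chr8:4323586-4326186). It had 38.8, 50.4 and 64.2 CPM at 18 months and 55.3, 67 and 81.7 CPM at 3 months, for a log2 fold change of -0.39 ± 0.102 (SE, edgeR adjusted p = 0.00382), and offsets smoothed on peak abundance or width brought it to -0.19 and -0.21 (adjusted p = 0.0655 and 0.0851). A peak inside Ccl25, 1.6 kb before another start of the gene, changed by -0.10 (edgeR adjusted p = 0.679).

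**Figure D2:**
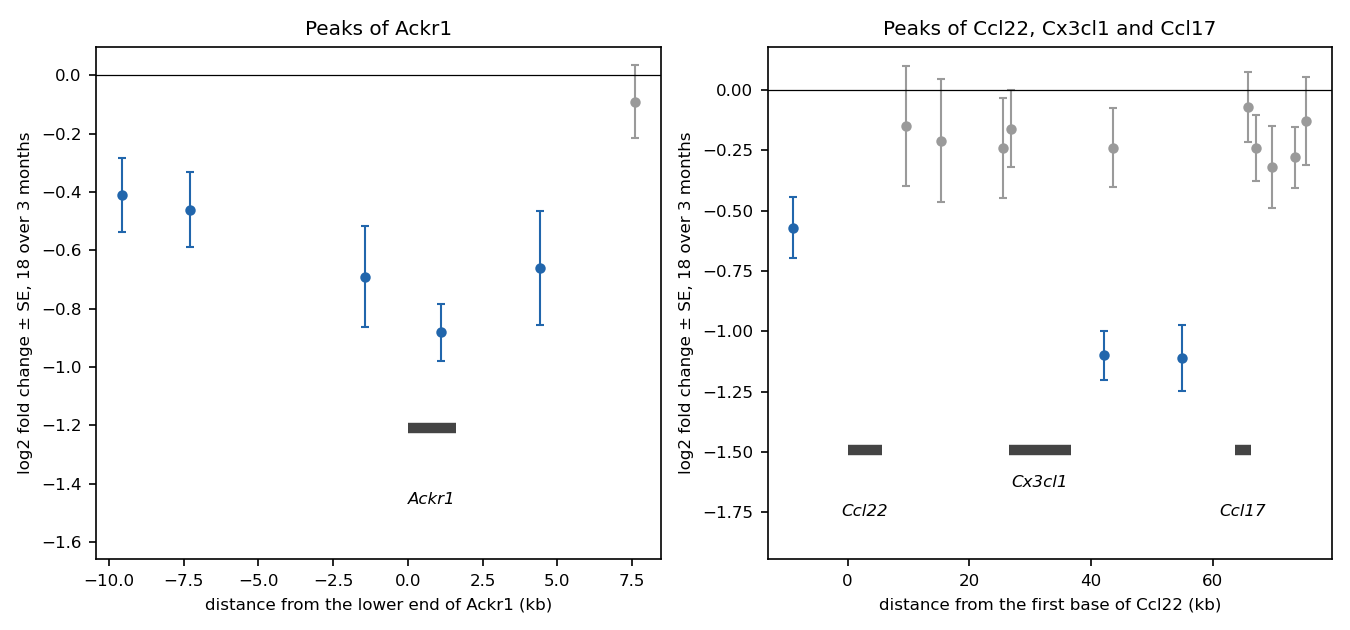
Log2 fold change ± SE, 18 over 3 months, of the peaks of Ackr1 (left) and of Ccl22, Cx3cl1 and Ccl17 (right) against distance in kb from the end of Ackr1 or of Ccl22 with the lower coordinate. Dark bars mark gene spans, blue points passed the edgeR test as lower and grey points did not; the lowest points are -0.88 over Ackr1 and -1.10 and -1.11 between Cx3cl1 and Ccl17.

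Among receptors the largest loss was at Ackr1, the Duffy antigen, a chemokine-binding receptor of red cells and venular endothelium. Of its 6 peaks 5 were lower at 18 months. The peak over its start, which covers the promoter printed above (chr1:173331431-173334560), had 25.1, 29.9 and 31.9 CPM as lowest, median and highest library at 18 months and 44.1, 55 and 61 CPM at 3 months. The groups did not overlap in either sex, and the log2 fold change was -0.88 ± 0.0976 (SE, edgeR adjusted p = 1.76e-09). The other peaks that passed had log2 fold changes of -0.69 and -0.66 within 3.06 kb of the start and -0.46 and -0.41 at 8.92 and 11.2 kb. The last 2 no longer passed with offsets smoothed on peak width (adjusted p = 0.0615 and 0.144), and the peak at -0.66 lies inside Cadm3. All 10 erythroid markers were lower at 18 months, with a median log2 fold change of -0.98 and summed levels of 371 to 406 CPM against 594 to 751 CPM. Megakaryocyte markers were lower at 3 of 6 genes, read at 5 peaks since Pf4 and Ppbp share 1, with summed levels of 77.1 to 85.8 CPM against 106 to 117 CPM, and those of stromal and endothelial cells at 0 of 6. Their part in the losses at Ackr1, Cx3cl1, Ccl17 and Ccl22 was not tested.

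Ackr2, an atypical receptor that clears inflammatory CC ligands, had 2 of 4 peaks higher at 18 months. The peak inside the gene, 6.1 kb after the start, had 3.94 to 6.22 CPM against 2.19 to 5.18 CPM, for a log2 fold change of 0.63 ± 0.195 (SE, edgeR adjusted p = 0.0159), or 0.52 without 18-month male 40 (adjusted p = 0.0632). The peak 8.26 kb beyond the gene, nearer to Cyp8b1, changed by 0.40 (adjusted p = 0.0153).

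Cxcr4 showed no call at any of its 6 peaks, with log2 fold changes of -0.06 to 0.17. Its start peak (chr1:128590561-128593964) was the most open receptor peak per length, at 26.8 CPM per kb. The lowest, median and highest library had 75, 87.2 and 116 CPM at 18 months and 79.7, 89.5 and 102 CPM at 3 months, and the log2 fold change was 0.00 ± 0.0943 (SE, edgeR adjusted p = 0.991). Another scaling moved this value: where offsets were smoothed on peak abundance or on peak width it was 0.24 and 0.22 (adjusted p = 0.00366 and 0.0276).

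Cxcr2, whose ligands include Cxcl1, Cxcl2 and Cxcl3, had 2 of 7 peaks higher at 18 months. The peak inside the gene, 1.59 kb after the start (chr1:74154989-74156189), had 23.6, 26.3 and 32.6 CPM at 18 months and 15.5, 18.5 and 37.9 CPM at 3 months. The highest value of all was that of the 3-month male of run 30, and the other 5 libraries of 3 months, at 15.5 to 19.3 CPM, lay below every 18-month library. The log2 fold change was 0.38 ± 0.13 (SE, edgeR adjusted p = 0.0301), or 0.59 without that male (adjusted p = 2.62e-06). The call was lost on leaving out any 1 of 8 other libraries, with DESeq2 (adjusted p = 0.0778) and with no sex term (adjusted p = 0.0589). The peak over the start had 19.6 to 26.1 CPM and 18.1 to 36.4 CPM, a log2 fold change of -0.03. The 36.4 CPM was that of the same male, the others reaching 22.5 CPM, and without it the value was 0.11 (adjusted p = 0.462). The peak 4.58 kb before the start, nearer to Rufy4, changed by 0.48 (adjusted p = 0.0311), and this call too was lost when any 1 of 8 libraries was left out and with offsets smoothed on abundance or width (adjusted p = 0.0632 and 0.102).

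**Figure D3:**
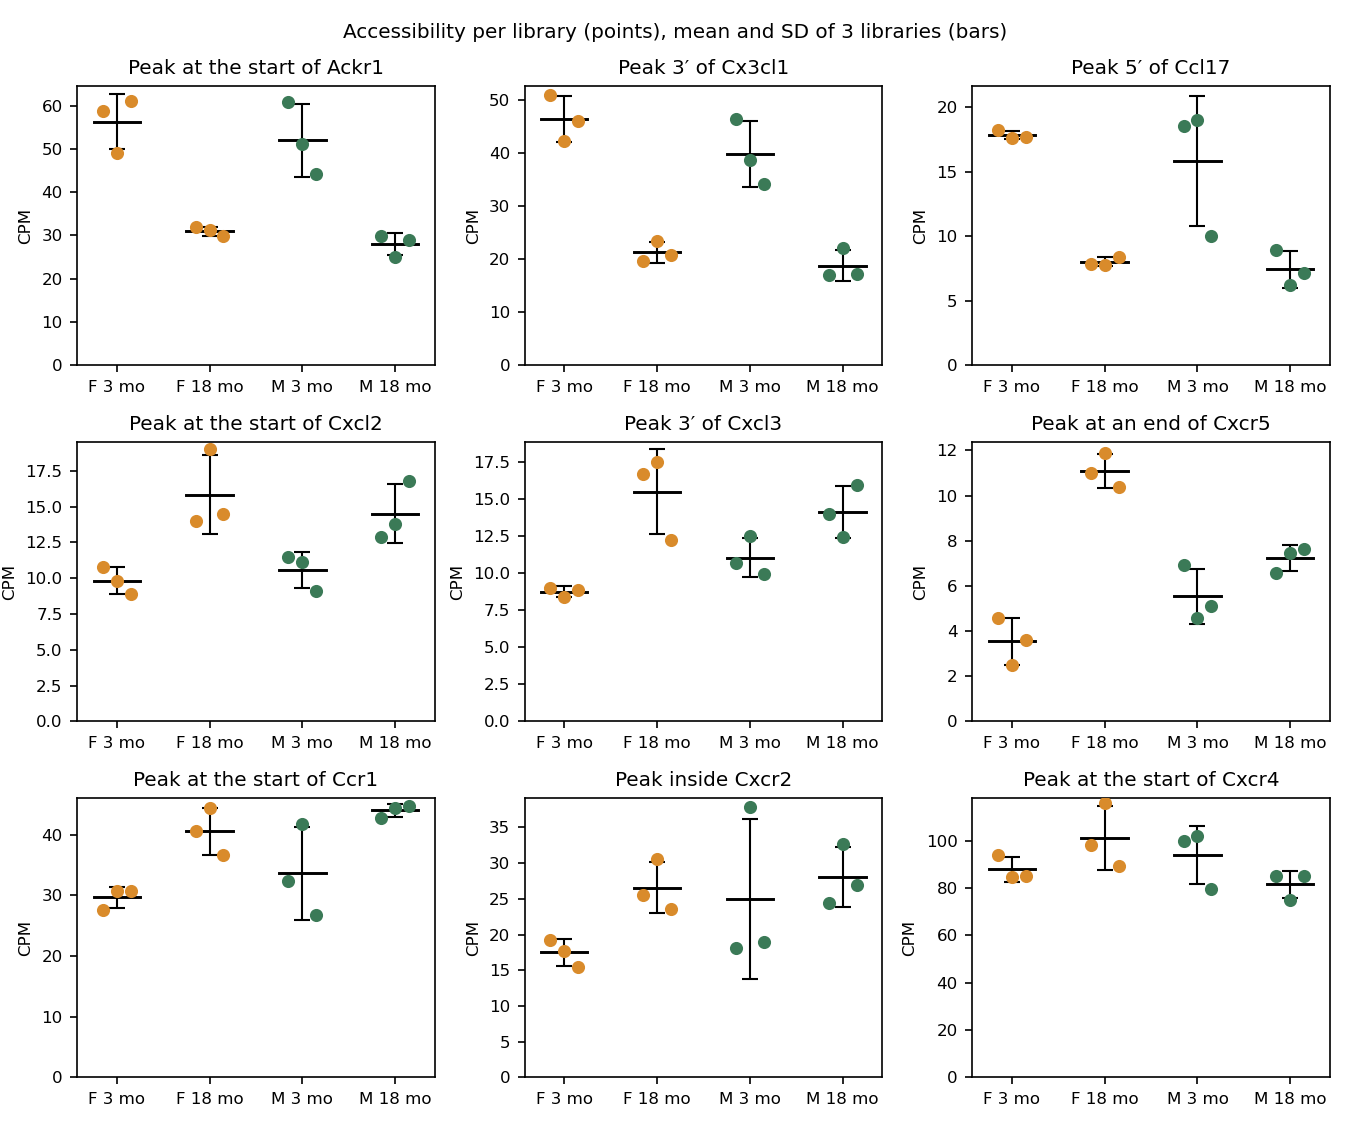
Accessibility in CPM of 9 peaks in each library (points), by sex (orange for females, green for males) and age, with the mean and SD of the 3 libraries of each group (lines). At Ackr1, Cx3cl1, Ccl17 and Cxcl2 the libraries of the 2 ages do not overlap, while at Cxcr2 1 male of 3 months reaches 37.9 CPM, above all others, and at Cxcr4 the ages overlap throughout.

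On chromosome 9, 7 receptor genes from Ccr9 to Ccr2 lie within 342 kb. Their 35 peaks within 10 kb had a median log2 fold change of -0.05, and 3 were higher and 3 lower at 18 months. Of 19 peaks of the span farther from these genes, 4 were higher and 1 lower, with a median of 0.19. Ccr1, a receptor of neutrophils and monocytes for Ccl3, Ccl5, Ccl6 and Ccl9, held 3 of the 6 calls. The peak over its start (chr9:123967257-123969499) had 36.6, 43.6 and 44.8 CPM as lowest, median and highest library at 18 months and 26.7, 30.7 and 41.8 CPM at 3 months. Again the highest 3-month value was that of the 3-month male of run 30, the others reaching 32.4 CPM, and the log2 fold change was 0.42 ± 0.1 (SE, edgeR adjusted p = 0.00173), or 0.50 without that male. A peak 3.94 kb after the start changed by 0.46 (adjusted p = 0.00288), or 0.60 without that male. A peak beyond the 3′ end changed the other way, with 18.3, 21.2 and 24.5 CPM against 18.3, 27 and 34.5 CPM and a log2 fold change of -0.34 ± 0.114 (SE, edgeR adjusted p = 0.0256). That call did not pass under total-count scaling or either kind of smoothed offset (adjusted p = 0.0655, 0.104 and 0.179), nor when any 1 of 4 libraries was left out. The start peak of the neighbouring Ccr1l1, whose promoter also held RUNX letters, had 20.3 to 27.2 CPM against 20.7 to 26.1 CPM, and none of its 6 peaks passed.

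The peak over the start of Ccr2, the monocyte receptor for Ccl2, had 6.07, 7.2 and 10.2 CPM at 18 months and 3.55, 5.5 and 8.32 CPM at 3 months (chr9:124101778-124102536). Its log2 fold change was 0.47 ± 0.165 (SE, edgeR adjusted p = 0.0365), and it lost the call with DESeq2 (adjusted p = 0.0501), with both kinds of smoothed offset and on leaving out any 1 of 7 libraries, the value without the 3-month male of run 30 being 0.32 (adjusted p = 0.121). The highest peak of Ccr2 changed by 0.01. Ccr3, the eotaxin receptor of eosinophils, had 1 of 5 peaks lower, 6.86 kb before its start (chr9:124014482-124015737). It had 9.03, 10.7 and 13.3 CPM against 12.9, 14.5 and 20.1 CPM, for -0.49 ± 0.126 (SE, edgeR adjusted p = 0.00359). Markers of eosinophils, basophils and mast cells had summed levels of 30.2 to 34.1 CPM against 22.1 to 28.6 CPM. Of the 6 with a peak, 1 was higher and 0 lower: Siglecf, with means of 13.3 and 8.85 CPM. The part of these markers in the Ccr3 value was not tested.

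Xcr1, the receptor of cross-presenting dendritic cells, had its most open peaks inside Fyco1. One of them was called lower (-0.30, edgeR adjusted p = 0.0356), and this was lost on leaving out any 1 of 9 libraries and under 3 scalings. Ccr9 and Cxcr6 had 0 calls.

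**Figure D4:**
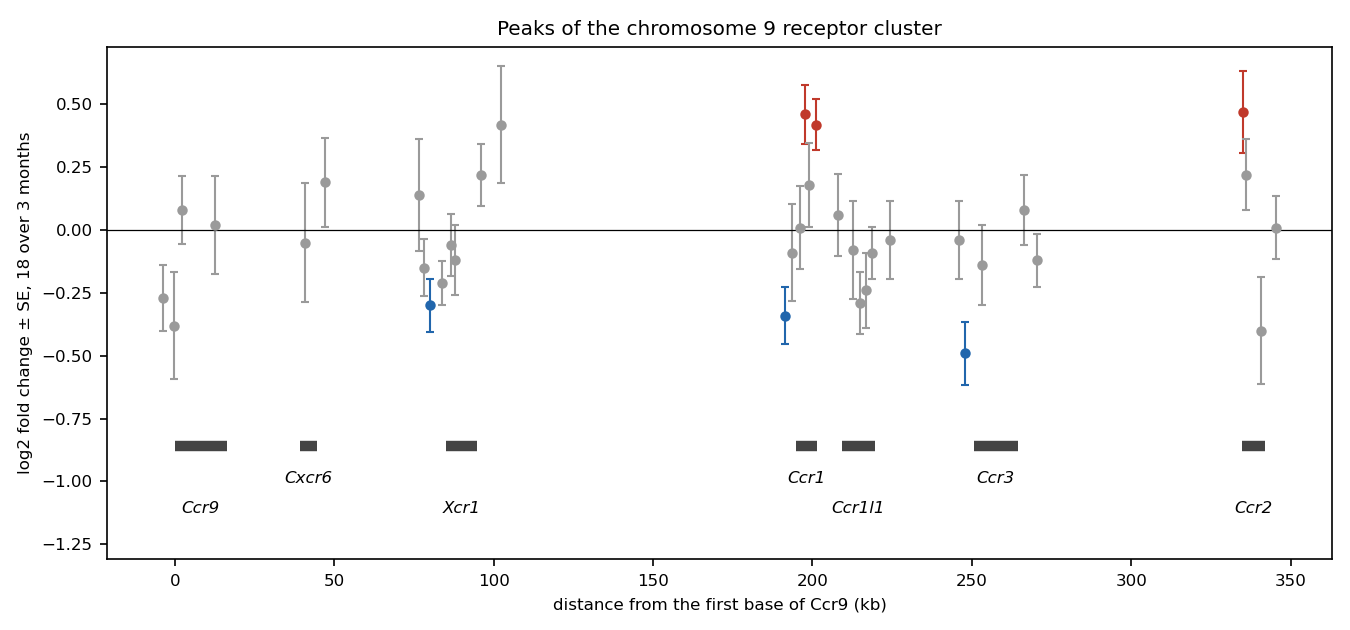
Log2 fold change ± SE, 18 over 3 months, of the 35 peaks of these 7 chromosome 9 genes against distance in kb from the first base of Ccr9, with gene spans as dark bars. Red and blue points passed the edgeR test as higher or lower at 18 months and grey points did not; the 3 red points are 2 peaks of Ccr1 and 1 of Ccr2, and the 3 blue points belong to Xcr1, Ccr1 and Ccr3.

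The largest gain of all 150 peaks was at Cxcr5, the receptor that takes B cells and follicular helper T cells to follicles. A peak 0.089 kb beyond an end of the gene (chr9:44526291-44526776) had 6.59, 9.04 and 11.9 CPM at 18 months and 2.48, 4.58 and 6.92 CPM at 3 months. The log2 fold change was 1.00 ± 0.179 (SE, edgeR adjusted p = 3.7e-05), and it passed under all 19 alternative settings. Females had 10.4 to 11.9 CPM against 2.48 to 4.56 CPM, and males 6.59 to 7.65 CPM against 4.59 to 6.92 CPM. The log2 fold changes were 1.64 and 0.38, and the test of their difference gave an adjusted p of 0.204 (edgeR). Another peak of Cxcr5, inside the gene, changed by 0.38 (adjusted p = 0.0334), and lost the call with offsets smoothed on abundance or width (adjusted p = 0.0515 and 0.0743). A further peak, outside the span of Cxcr5 (chr9:44509882-44511451, 0.30, adjusted p = 0.0566), passed without the 3-month male of run 30 (0.35, adjusted p = 0.0115). In all, 8 of the 9 peaks had values above 0. B cell markers had summed levels of 144 to 223 CPM at 18 months and 174 to 217 CPM at 3 months, with 0 of 10 higher and 1 lower.

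Cx3cr1, the fractalkine receptor of monocytes and macrophages, had 2 of 5 peaks higher and all 5 log2 fold changes above 0. These gains were opposite in sign to the loss near its ligand gene Cx3cl1. The peak 5.35 kb beyond the gene (chr9:120042875-120043794) had 9.52, 10.4 and 15.9 CPM at 18 months and 5.69, 8.08 and 8.69 CPM at 3 months. The groups did not overlap, and the log2 fold change was 0.57 ± 0.143 (SE, edgeR adjusted p = 0.00264). The peak over its start had 4.71, 6.47 and 8.61 CPM against 3.17, 4.75 and 6.47 CPM, for 0.56 ± 0.174 (SE, edgeR adjusted p = 0.0168), or 0.47 with offsets smoothed on peak width (adjusted p = 0.057). Ccr6, the receptor for Ccl20 on B and T cells, had 1 of 4 peaks higher, 2.14 kb before its start (4.78 to 6.27 against 2.8 to 5.28 CPM, log2 fold change 0.61 ± 0.186, SE, edgeR adjusted p = 0.0137). That call was lost with offsets smoothed on peak width (0.48, adjusted p = 0.0623). The 4 peaks of Ccr7, which guides cells to lymph nodes, had log2 fold changes of -0.25 to 0.09 and 0 calls. The peaks of Ccr8, Ccr10 and Cxcr1 also had 0 calls. One Ccr10 peak, nearer to Plekhh3 (chr11:101170453-101172613, 0.20, adjusted p = 0.157), passed without the 3-month male of run 30 (0.26, adjusted p = 0.0338), under total-count scaling (adjusted p = 0.022) and with offsets smoothed on abundance or width (adjusted p = 0.00398 and 0.00501).

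Of the 15 chemokine peaks over an annotated start, 7 passed, 5 higher (33.3%) and 2 lower (13.3%). A start was at hand for 30 of the 40 genes with a peak, and Cxcr5, Ccl4, Ccl5 and Cxcl16 are among the other 10. Of all 10581 tested peaks over a start, 4.27% were higher and 28.5% lower. The 2 sets differ in make-up: all start peaks had a median log2 CPM of 4.72 and width of 1517 bp, the 15 chemokine ones 3.68 and 1081 bp. The higher chemokine start peaks lay at Cxcl2, Ccl3, Ccr1, Ccr2 and Cx3cr1 and the lower ones at Ackr1 and Ccl25. As given above, Ccr2 and Ccl25 lost the call with both kinds of smoothed offset and Cx3cr1 with offsets smoothed on width. Peaks inside ligand genes were called in 1 of 13 (7.69%) and outside them in 12 of 43 (27.9%), and for receptors in 7 of 36 (19.4%) and 13 of 58 (22.4%), against 21.0% of all tested peaks. These positions were not compared by a test.

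Taken by sex, edgeR's test called 23 chemokine peaks for age in females, 13 higher and 10 lower (15.3%, against 11.9% of all tested peaks), and 10 in males, 4 higher and 6 lower (6.67%, against 11.4%). All 33 peaks called over both sexes had the same direction in females and males. Since they were picked by a test over both sexes of these libraries, that agreement is no separate evidence. Of the 33, 19 were called in females, 9 in males and 3 in both. The peaks called in each sex on its own were those of Ackr1, Cx3cl1 and Ccl17 without overlap. Counts within a sex rest on 3 mice per age: those in females ranged from 12 to 30 and those in males from 5 to 16 when single libraries were left out. The interaction of age and sex was called at 0 chemokine peaks by edgeR and by DESeq2, with 17 at an unadjusted p under 0.05, and at 0.00532% of all peaks. Without the 3-month male of run 31 it was called at 5, of Cxcl1, Cxcr5, Cxcr2, Ccl3 and, with its centre in Lipe, Cxcl17, when 2.16% of all peaks were called. The smallest adjusted p with all libraries was 0.197, for the Cxcl1 peak. Sex itself was called at 0 chemokine peaks by both tools (9 at an unadjusted p under 0.05, smallest edgeR adjusted p = 0.399), against 0.162% of all peaks.

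Of 46 genes that act downstream of the receptors, for G proteins, arrestins, integrins and related factors, 45 had a peak. At the most open peak of each, 4 were higher at 18 months (8.89%), 13 lower (28.9%) and 28 not called, with a median log2 fold change of -0.06. Over all tested peaks the shares were 9.43% and 11.6%, but 23 of these 45 peaks lay over a start, where 4.27% and 28.5% of all peaks were called. A further 8 genes are the platelet chemokine genes Pf4 and Ppbp, whose symbols lie outside the rule, the chemokine-like factor genes Mif and Cklf, related receptor genes (Ccrl2, Cmklr1, Cd74) and that of the peptidase Dpp4, which cleaves chemokines. They were read at 7 peaks, since Pf4 and Ppbp share 1, and Cd74 was higher and Ccrl2 lower. Over both sets, the largest losses were at Arrb1, for an arrestin that desensitises receptors (-0.66, edgeR adjusted p = 1.47e-07), the integrin gene Itgb1 (-0.56) and Rap1a, for a small GTPase that activates integrins (-0.51). The largest gains were at Rgs1, for a brake on G protein signalling (0.65, edgeR adjusted p = 0.0184), Cd74, for a receptor of the chemokine-like factor Mif (0.58), and the leukocyte integrin gene Itgal (0.40).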

How the data were processed

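The authors deposited a table of whole-number read counts for 75281 consensus peaks in 12 ATAC-seq libraries, with no value under 1. Per the submitters' processing notes, Trimmomatic, BWA, MACS2, DiffBind and edgeR were used with build mm10, with no versions or roles given. How duplicates and multiply mapped reads were treated is not given in the sources used here. Labels place each mouse as a sample of its own, and 0 pairs of libraries held identical values. Counts at chemokine peaks ranged from 9 to 1455 with a median of 77, so counting error is larger at the lower peaks. Intervals for single counts were not used.

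A peak was tested if its CPM passed 1 in 2 or more libraries, which kept 75164. Counts were fitted in edgeR 4.0.16 (R 4.3.3) by quasi-likelihood with TMM factors on age and sex, or on the 4 group means for effects within a sex and the interaction. P-values were adjusted by Benjamini-Hochberg over all tested peaks. CPM is the count scaled to the TMM-adjusted library total, as edgeR gives it. The fits were first tested on simulated data. Alternatives were total-count scaling, offsets smoothed on peak abundance or width (lowess in R), DESeq2 1.42.0, other filters, no sex term, leaving out each library, and other windows. Genes came from RefSeq GRCm38.p6. Its table holds no exons, so exon and intron are not given. Counts over all chemokine peaks include 1 gene whose own values are not reported here. The genome itself was not used, so motifs were searched in promoter windows only.

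The genes, the marker and pathway lists and the tests were chosen with earlier results of these data known. Peaks to name were taken as the called peaks of largest change, up to 8 genes per direction for ligands and for receptors, 1 per gene, genes with all of at least 3 peaks called in 1 direction, and the most open peak of 21 genes known in marrow. For pathway genes, the 3 largest changes per direction were taken. Other called peaks and the start peaks were added after their values were seen. A marker or pathway gene was read at its most open peak within 3 kb.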

Additional observations from a re-analysis of the deposited data

Results flagged for a closer look

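At 37 named peaks the 6 libraries of each age were checked for a value far from the others (Dixon's test, 74 groups, of which chance gives about 1 in 20). There were 5 such values, all among 3-month males. The 3-month male of run 30 was highest at 4 peaks. It had 16 CPM at the Ccl9 peak chr11:83572022-83572711, where the others had 8.15 to 10.4 CPM. At Ccr1 it had 30.6 CPM against 15.4 to 20.1 CPM at chr9:123964024-123965484, and 41.8 CPM against 26.7 to 32.4 CPM at chr9:123967257-123969499. At Cxcr2 it had 37.9 CPM against 15.5 to 19.3 CPM at chr1:74154989-74156189. The neutrophil marker level of the same male was 297 CPM, and its part in these values was not tested. The 3-month male of run 31 was lowest at the Ccl17 peak chr8:94800292-94801161, with 10 CPM against 17.6 to 19 CPM.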

How the results depend on the processing

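Age and sequencing run cannot be told apart, each group holds 3 mice, and peaks were tied to genes by position alone. No paired analysis was possible because no mouse number is shared between groups. Depth limits the lowest peaks: the SE was 0.227 at the Cxcl16 peak of 1.45 to 6.08 CPM and 0.0943 at the Cxcr4 start peak.

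Under total-count scaling the ligand peaks higher at 18 months came to 14, the ligand and receptor medians to 0.19 and 0.09, and the peaks with an age effect in males to 16. Over all tested peaks 11196 were then higher and 6629 lower (62.8% higher, against 44.9% under TMM), with a median of 0.10. With offsets smoothed on peak width 4 receptor peaks were lower. Of the 33 called chemokine peaks 31 remained under total-count scaling, 27 with offsets smoothed on abundance, 23 on width and 31 with DESeq2, and 22 in all of these. Within 3 kb of genes (28 ligand and 59 receptor peaks), 3 ligand peaks were higher and 1 lower, 4 receptor peaks were lower, and the receptor median was 0.06. Within 50 kb (135 and 233 peaks), 22 ligand peaks were higher and 9 lower, 30 receptor peaks were higher and 24 lower, and the receptor median was 0.06. With 1 library left out, ligand peaks higher at 18 months ranged from 8 to 15 (15 without the 3-month male of run 30), receptor peaks higher from 7 to 13 (7 without 18-month female 36 or the 3-month male of run 29), receptor peaks lower from 5 to 9 (5 without the 3-month female of run 28 or the 3-month male of run 29), and the receptor median from -0.02 to 0.05. Likewise, peaks with an age effect in females ranged from 12 to 30 (12 to 14 without 18-month female 35 or 36 or the 3-month female of run 28 or 31), those in males from 5 to 16 (5 without 18-month male 39 and 16 without the 3-month male of run 31), and those with an interaction from 0 to 5 (5 without the 3-month male of run 31). Of the 117 chemokine peaks not called, 10 passed under total-count scaling and 3 with each kind of smoothed offset. The cause of these shifts was not tested. None of the 37 named peaks reversed a called direction under the 19 settings, but some were not called, and a reversal needs a call in each direction. Calls were lost, among others, in 12 of the 19 settings at the Xcr1 peak chr9:123845942-123848677 and in 10 at the start peak of Ccr2.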
